A study of Mus musculus with 4 samples.

Results

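The genes described here are 10 subunits and inhibitors of NF-κB, chosen by symbol: the Rel subunits and their precursors Nfkb1, Nfkb2, Rela and Relb, the classical inhibitors Nfkbia, Nfkbib and Nfkbie, the nuclear regulators Nfkbiz and Bcl3, and the feedback inhibitor Tnfaip3. They were found as 10 of the 49585 genes counted, and all 10 had enough fragments to be tested. The series is a strand-specific mRNA sequencing study of C2C12, a mouse myoblast line of C3H origin that fuses into myotubes when serum is lowered. In 2 libraries the cells carried the empty retroviral vector pLXSN, and in the other 2 a retrovirus that overexpresses C/EBPβ, a leucine zipper transcription factor. Cells of both groups underwent 7 days of selection in G418 (1200 µg/ml) and were kept as pools of stable cells, not as single clones. They then proliferated for 2 days and were differentiated for 2 days in 2% horse serum. The sources used here do not give the promoter that drives C/EBPβ or the species of its cDNA. Whether the replicates were grown as separate cultures is not stated, so the p-values here reflect only the variation among these 4 libraries, which may be technical.

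NF-κB is a dimer of Rel proteins that waits in the cytoplasm, bound by inhibitors of the IκB family. In the classical pathway, signals such as interleukin-1 or TNF activate the IκB kinases, IκB is degraded, and dimers that contain RelA enter the nucleus. In the alternative pathway, the kinase NIK (Map3k14) drives the processing of p100, the product of Nfkb2, which frees RelB. Several inhibitor genes are themselves targets of NF-κB, which closes a feedback loop. In muscle cells classical NF-κB signalling is known as a brake on differentiation.

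The promoters of the 3 genes that passed the test are shown because their transcripts changed, while the other 7 genes did not pass the test. RefSeq promoter windows of GRCm38.p6, from 250 bases before to 50 bases after an annotated start, were found for 7 of the 10 genes, namely Nfkb2, Rela, Nfkbia, Nfkbib, Nfkbie, Bcl3 and Tnfaip3. Capitals mark matches to the κB motif, the degenerate 10-base consensus bound by Rel dimers, searched on both strands. The most upstream window of each gene reads, 5′ to 3′:

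Nfkbia (chr12:55492598-55492897, minus strand): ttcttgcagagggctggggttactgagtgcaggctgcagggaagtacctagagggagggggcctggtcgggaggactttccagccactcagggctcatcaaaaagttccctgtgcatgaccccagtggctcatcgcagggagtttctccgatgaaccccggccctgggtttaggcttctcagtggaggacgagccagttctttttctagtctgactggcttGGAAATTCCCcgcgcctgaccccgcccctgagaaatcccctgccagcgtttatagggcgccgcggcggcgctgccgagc

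Nfkb2 (chr19:46304487-46304786, plus strand): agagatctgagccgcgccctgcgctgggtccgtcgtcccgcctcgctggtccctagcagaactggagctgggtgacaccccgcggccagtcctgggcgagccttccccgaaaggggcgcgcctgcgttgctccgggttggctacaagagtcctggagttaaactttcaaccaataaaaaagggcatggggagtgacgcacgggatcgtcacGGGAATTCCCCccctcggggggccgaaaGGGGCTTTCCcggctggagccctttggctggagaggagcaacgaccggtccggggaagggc

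Tnfaip3 (chr10:19015361-19015660, minus strand): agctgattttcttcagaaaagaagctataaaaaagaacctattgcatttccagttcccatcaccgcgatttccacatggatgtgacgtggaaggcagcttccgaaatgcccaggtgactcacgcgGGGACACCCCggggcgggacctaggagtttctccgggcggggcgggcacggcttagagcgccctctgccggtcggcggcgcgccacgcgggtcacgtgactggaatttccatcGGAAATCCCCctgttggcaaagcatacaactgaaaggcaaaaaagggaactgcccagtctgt

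The Nfkbia window held 1 match, GGAAATTCCC, beginning 29 bases before the start. The Nfkb2 window held 3 matches, the first 2 of which overlap in GGGAATTCCCC. The Tnfaip3 window held 2 matches, GGGACACCCC and GGAAATCCCC. At least 1 match was found in 5 of the 7 genes, Nfkb2, Nfkbia, Nfkbie, Bcl3 and Tnfaip3, and of the 27025 genes with a window 9.55% had a match (8.46% of all 32851 windows). The C/EBP motif TTGCNNAA, also searched on both strands, matched in 10.8% of all windows and was not found in the windows of these 7 genes. These matches describe letters in a window, and no binding data were used here.

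Between 36461091 and 51537847 fragments per library were assigned to genes. Cebpb itself stood at 42.7 and 41.3 CPM in the empty-vector libraries and at 502 and 442 CPM in the C/EBPβ libraries, where CPM is the usual depth-normalised read count, here relative to the scaled library total. All 10 myogenic markers listed were detected in every library. Their summed level ran from 15700 to 17510 CPM in the empty-vector libraries and was 4782 and 7186 CPM in the C/EBPβ libraries. Of these markers 8 fell, Myf5 rose (mean of 30.5 to 65.1 CPM) and Myf6 did not pass. Myh3, at a mean of 7072 and 1393 CPM, was the largest part of the empty-vector sums. Of 12 macrophage markers, Adgre1, Fcgr1 and Tyrobp had no fragment in any library, the summed level was 7.99 to 8.86 CPM in the empty-vector and 41.4 to 44.6 CPM in the C/EBPβ libraries, and 3 of the 5 markers tested rose while 1 fell. Lyz2, whose counts are uncertain because it has a near-identical paralog in Lyz1, made up most of that sum in the C/EBPβ cells, at a mean of 27.2 CPM, while Ptprc, the pan-leukocyte marker, stood at 0.0112 and 0.0137 CPM. The 8 lymphocyte markers summed to at most 0.297 CPM and the 6 endothelial markers to at most 2.97 CPM in any library. The 10 markers of the mesenchymal (fibro-adipogenic) progenitors that lie between muscle fibres summed to 3628 to 4535 CPM and to 12670 to 12870 CPM, and of the 8 tested 4 rose and 2 fell. Col3a1, at a mean of 3554 and 12170 CPM, made up most of both sums, while Lum and Cd34 fell and Ly6a and Dcn did not pass. The part of these shifts in the results that follow was not tested. In bulk RNA, fewer cells of a type and less RNA per cell cannot be told apart.

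Of the 10 genes, Nfkbia rose with C/EBPβ, and Tnfaip3 and Nfkb2 fell. Nfkbia, which encodes the inhibitor IκBα, was 1.66-fold higher, Tnfaip3, which encodes the ubiquitin-editing enzyme A20, was 1.89-fold lower, and Nfkb2 was 1.21-fold lower. In edgeR's quasi-likelihood test with Benjamini-Hochberg adjustment over 15886 genes, 43.2% of all genes passed a threshold of 0.05, 22.3% as higher and 20.9% as lower. The 3 of 10 called in this fit are a smaller share than among all genes, but with 10 genes that difference rests on few calls. The authors' own comparison has 1 of the 10 as higher and 4 as lower, a larger share than its 37.0% of all genes. With the replicate number as a block, 2 of the 10 were higher and 4 lower. The share called thus depended on the processing, and no conclusion is drawn from it. In the edgeR fit without a block, the share called among genes within the same range of mean CPM was 46.4%, with 24.1% higher and 22.3% lower. No call among the 10 reached 2-fold, which 16.6% of all genes tested did. The median log2 fold change of the 10 was -0.06, against 0.01 over all genes tested, and their median size irrespective of direction was 0.26, against 0.33. The C/EBPβ and empty-vector libraries did not overlap in CPM for any of the 10 genes, which was also true of 75.1% of all genes tested.

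**Figure D1:**
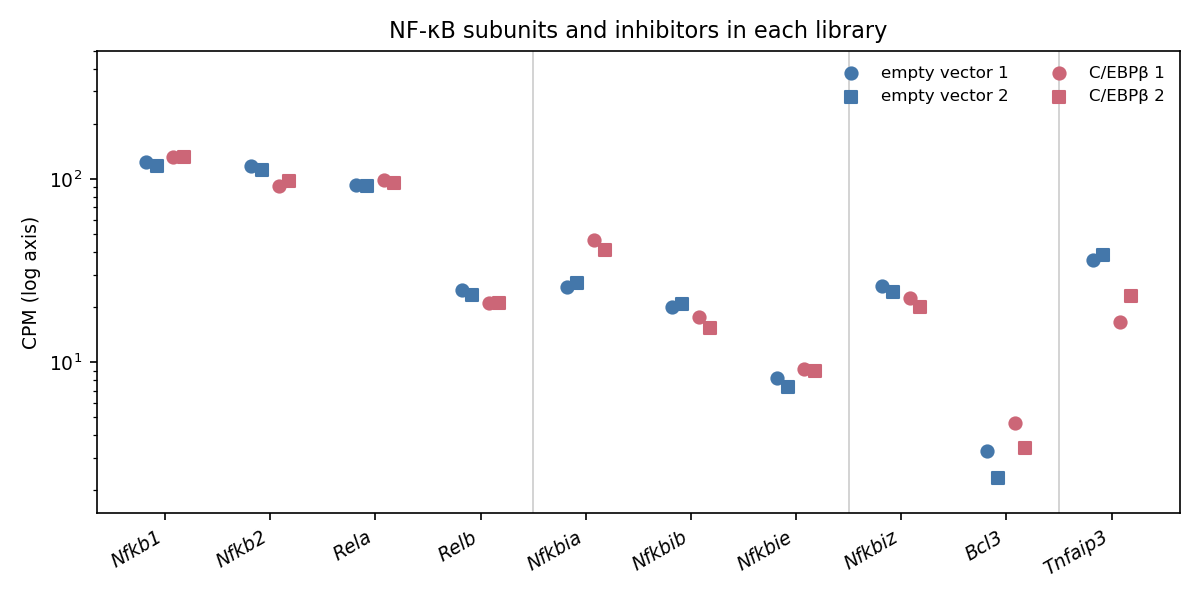
CPM on a log axis of each of the 10 genes in the 2 empty-vector libraries (blue) and the 2 C/EBPβ libraries (red), with replicate 1 as circles and replicate 2 as squares and grey lines between the roles. Nfkbia is the gene whose red points stand farthest above the blue ones and Tnfaip3 the one whose red points stand farthest below, while Nfkb1 and Rela lie close together in all 4 libraries.

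Among the Rel subunits, Nfkb2 was the one that passed. Nfkb2 (chr19:46304737-46312090, plus strand of GRCm38, 23 exon blocks) had 117.5 and 111 CPM in the empty-vector libraries and 91.55 and 96.95 CPM in the C/EBPβ libraries. Both C/EBPβ libraries lay below both empty-vector libraries. The mean went from 114 ± 4.34 to 94.2 ± 3.82 CPM (SD, n = 2 each), or -0.28 ± 0.08 (SE) in log2 terms, with an adjusted p of 0.0226. Without empty-vector replicate 1 the adjusted p was 0.105, without empty-vector replicate 2 it was 0.0591, and without C/EBPβ replicate 1 it was 0.0971, so this call rests on having all of these libraries. Relb (chr7:19606217-19629438, minus strand), whose protein pairs with p52 made from Nfkb2, had 24.8 and 23.1 CPM against 20.91 and 21.03 CPM, again lower in both C/EBPβ libraries. It did not pass, at -0.19 ± 0.09 (SE) in log2 terms and an adjusted p of 0.135.

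The classical pair, Rela and Nfkb1, did not pass the test. Rela (chr19:5637483-5648130, plus strand), which encodes the transactivating subunit p65, had 93.1 and 91.2 CPM in the empty-vector libraries and 98.6 and 94.9 CPM in the C/EBPβ libraries. Its log2 fold change of 0.07 ± 0.07 (SE) had an adjusted p of 0.482 and lay in the 12.8th percentile of all genes tested by size of change. Nfkb1 (chr3:135584655-135691547, minus strand), which encodes p105 and its product p50, had 123.0 and 117.5 CPM against 132.4 and 132.1 CPM. The C/EBPβ libraries were both higher, by 0.14 ± 0.08 (SE) in log2 terms, and the gene did not pass at an adjusted p of 0.192. Rel, the remaining Rel gene expressed here, had a mean of 11.6 ± 0.481 and 13.02 ± 0.238 CPM (n = 2 each) and a log2 fold change of 0.17 (adjusted p = 0.260).

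The classical inhibitors did not move alike. Nfkbia (chr12:55489411-55492647, minus strand, 6 exon blocks) had 25.6 and 27.0 CPM in the empty-vector libraries and 46.2 and 41.0 CPM in the C/EBPβ libraries. Both C/EBPβ libraries stood well above both empty-vector libraries. The mean rose from 26.3 ± 1.01 to 43.6 ± 3.72 CPM (SD, n = 2 each), which is 0.73 ± 0.09 (SE) in log2 terms, at an adjusted p of 0.000624. Nfkbib (chr7:28758251-28767512, minus strand), which encodes IκBβ, pointed the other way, with 19.9 and 20.9 CPM against 17.6 and 15.3 CPM. Its log2 fold change of -0.31 ± 0.11 (SE) narrowly missed the threshold (adjusted p = 0.0518). Nfkbib passed as lower with median-ratio size factors (0.0440) and without a low-count filter (0.0300), but not with library sizes alone (0.123) or in DESeq2 (0.0731). The log2 fold change was -0.41 without C/EBPβ replicate 1 and -0.23 without C/EBPβ replicate 2. It was -0.34 without empty-vector replicate 1 and -0.27 without empty-vector replicate 2. Of the exonic length of Nfkbib, 16.4% lies opposite exons of Sirt2 or Ccer2, and the counting was by strand. Nfkbie (chr17:45555716-45563169, plus strand), which encodes IκBε, had 8.21 and 7.36 CPM against 9.15 and 8.92 CPM and missed the threshold at an adjusted p of 0.212, with 0.22 ± 0.13 (SE) in log2 terms.

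The makeup of the inhibitor pool also differed between the groups. Divided by exonic length in kilobases, Nfkbia stood at 1.76 and 1.78 times the level of Nfkbib in the empty-vector libraries and at 3.61 and 3.67 times in the C/EBPβ libraries. Nfkbia made up 56.3% and 57.5% of the per-kilobase level of the 3 classical inhibitors in the empty-vector libraries and 71.1% and 70.7% in the C/EBPβ libraries. These ratios of single genes were chosen after their values were seen and have no test. With 2 libraries on each side, 0.333 is the smallest 2-sided p that an exact permutation test can reach.

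**Figure D2:**
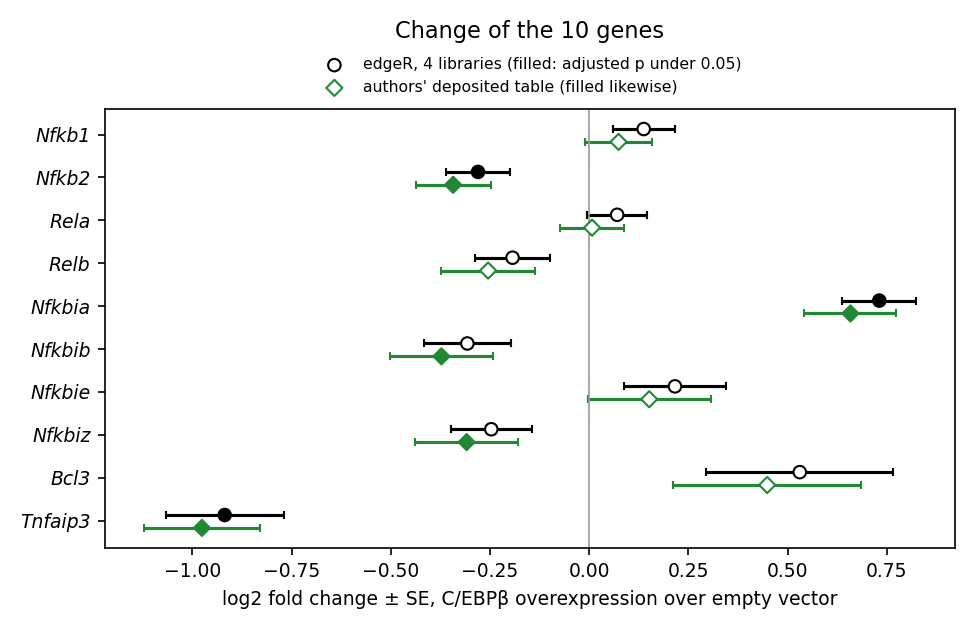
The log2 fold change with its SE for each of the 10 genes, C/EBPβ over empty vector, from edgeR on the 4 libraries (black circles) and from the authors' deposited table (green diamonds), filled where the adjusted p is under 0.05. Both sources have Nfkbia highest and Tnfaip3 lowest, and all 10 genes have the same sign in both.

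The nuclear regulators Bcl3 and Nfkbiz are IκB relatives that act in the nucleus and can help as well as restrain transcription by NF-κB. Nfkbiz (chr16:55811375-55838899, minus strand), which encodes IκBζ, had 26.2 and 24.3 CPM in the empty-vector libraries and 22.4 and 20.0 CPM in the C/EBPβ libraries. All C/EBPβ values were lower, with a log2 fold change of -0.25 ± 0.10 (SE), and the gene did not pass (adjusted p = 0.0855). Bcl3 (chr7:19808462-19822770, minus strand), a partner of p50 and p52 dimers, was the least abundant of the 10, with 146 and 118 fragments in the empty-vector libraries and 242 and 124 in the C/EBPβ libraries. These correspond to 3.28 and 2.33 CPM against 4.63 and 3.39 CPM, so that the lower C/EBPβ library lay just above the higher empty-vector library. The log2 fold change was 0.53 with the widest SE of the 10 (0.24), and Bcl3 did not pass (adjusted p = 0.105). It passed as higher without C/EBPβ replicate 2 (log2 fold change 0.71, adjusted p = 0.00571) and without a low-count filter (0.52, adjusted p = 0.0352). Without C/EBPβ replicate 1 the log2 fold change was 0.28 (adjusted p = 0.420) and without empty-vector replicate 2 it was 0.30 (adjusted p = 0.469).

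Tnfaip3 had the largest change of the 10. The gene (chr10:19000910-19015657, minus strand, 9 exon blocks) encodes A20, which restrains NF-κB by editing ubiquitin chains on signalling proteins such as RIPK1. It had 36.2 and 38.2 CPM in the empty-vector libraries and 16.6 and 22.9 CPM in the C/EBPβ libraries. Both C/EBPβ libraries were well below both empty-vector libraries, and they differed from each other more than the empty-vector libraries did. The mean fell from 37.2 ± 1.39 to 19.7 ± 4.40 CPM (SD, n = 2 each), or -0.92 ± 0.15 (SE) in log2 terms at an adjusted p of 0.00274, larger in size than that of 80.4% of all genes tested. Within the C/EBPβ group, replicate 2 was higher than replicate 1 for Tnfaip3 (22.9 against 16.6 CPM) and for the summed myogenic markers (7186 against 4782 CPM); the part of the latter in the former was not tested. Thus IκBα and A20, both known as feedback inhibitors that NF-κB itself induces, had changes of opposite sign.

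In the authors' deposited table, 1 of the 10 genes was higher and 4 were lower at an adjusted p of 0.05. Of all 18373 genes with an identifier and an adjusted p in the authors' deposited table, 37.0% passed that threshold, 16.1% as higher and 20.9% as lower. Beside Nfkbia (log2 fold change 0.66), Tnfaip3 (-0.98) and Nfkb2 (-0.34), the authors' deposited table has Nfkbib as lower (-0.37, adjusted p = 0.0142) and Nfkbiz as lower (-0.31, adjusted p = 0.0476). For all 10 genes the sign was the same as in the edgeR fit. The mean signal in the authors' deposited table is 35.8 to 52.1 times the mean CPM of the 4 libraries, depending on the gene, so it is not a rescaled mean of the counts used here, and the sources do not say which libraries or counts entered it.

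Levels were compared between genes per kilobase of exonic length, which takes in the exons of all annotated isoforms and so can lower the value of a gene with rarely used exons. That length is 12061 bases for Nfkb1, the longest of the 10. In the empty-vector cells Nfkb2 and Rela were the most abundant, with means of 34.8 ± 1.32 and 33.9 ± 0.504 CPM per kilobase (SD, n = 2), and their libraries overlapped. They were followed by Nfkbia (16.7), Nfkb1 (9.97), Nfkbib (9.41), Relb (6.17), Tnfaip3 (5.15), Nfkbiz (5.03), Nfkbie (3.21) and Bcl3 (1.13). Of these neighbours, Tnfaip3 and Nfkbiz overlapped between libraries and the others did not. By this measure Rela and Nfkb2 stood above 89.2% and 89.5% of all genes tested, and Bcl3 above 29.8%. In the C/EBPβ cells Rela came first, with 35.6 ± 0.949 CPM per kilobase, and Nfkbia, at 27.7 ± 2.36, overlapped with Nfkb2, at 28.7 ± 1.16. Tnfaip3 moved from the 7th to the 9th place, at 2.73 ± 0.609 CPM per kilobase, below Nfkbiz (4.23) and Nfkbie (3.73).

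With C/EBPβ the summed level of the 4 Rel subunits was 0.950 times that of the empty-vector cells, and that of the 3 classical inhibitors was 1.33 times. The subunits summed to 86.6 and 83.1 CPM per kilobase in the empty-vector libraries and to 80.5 and 80.8 in the C/EBPβ libraries. The inhibitors summed to 28.8 and 29.8 CPM per kilobase and to 41.2 and 36.8. The groups did not overlap in either per-kilobase sum, lower with C/EBPβ for the subunits and higher for the inhibitors, as the groups did not for 75.1% of single genes tested. Without division by length the subunit sums did overlap, at 358.4 and 343.2 CPM against 343.4 and 345.0 CPM. The undivided inhibitor sums did not, at 53.7 and 55.2 CPM against 73.0 and 65.3 CPM. The ratio of inhibitors to subunits was 0.333 and 0.358 in the empty-vector libraries and 0.512 and 0.455 in the C/EBPβ libraries, 1.399 times higher on average. The groups did not overlap in that ratio. It is given as a description, because a permutation of 4 libraries cannot reach the threshold. It describes transcripts and not the proteins, whose turnover sets how much inhibitor is present. The shift lay mainly in Nfkbia, with a smaller part in Nfkb2. Nfkbia rose from a mean of 16.7 to 27.7 CPM per kilobase, and the inhibitor sum from 29.3 to 38.99. Nfkbib was lower and Nfkbie higher. Nfkb2 fell from 34.8 to 28.7, and the subunit sum from 84.86 to 80.64. Relb was lower, and Rela and Nfkb1 were higher. Nfkb2 was counted only as a subunit, although p100 holds RelB until it is processed, so the ratio does not cover all inhibition.

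**Figure D3:**
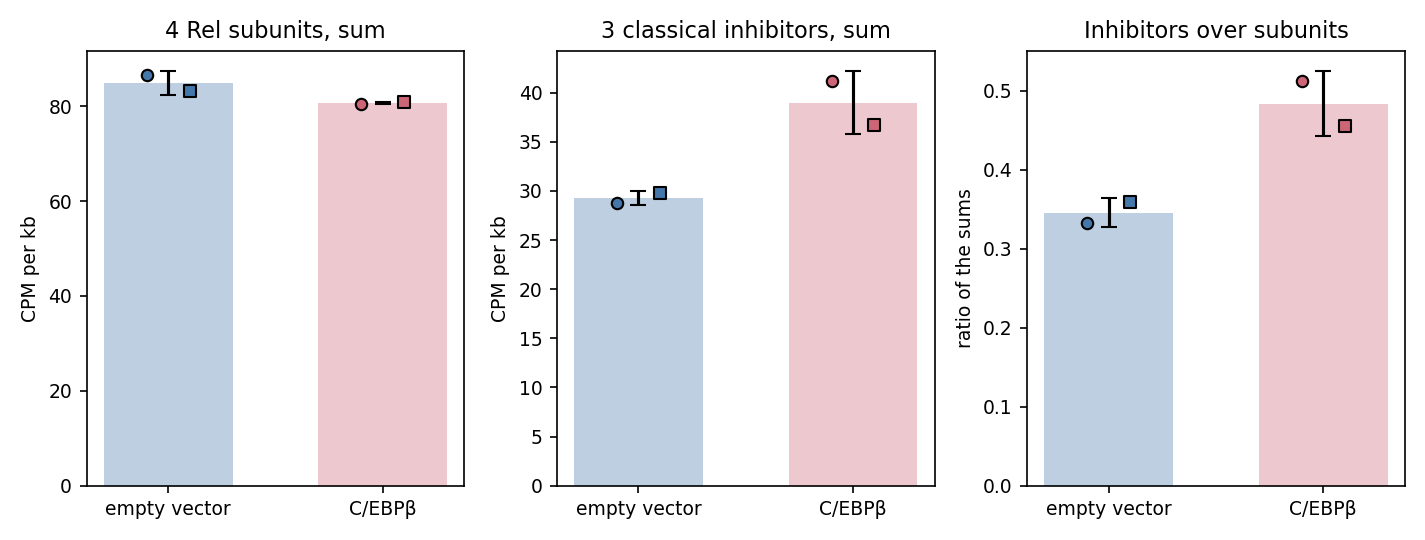
Summed per-kilobase levels of the 4 Rel subunits, of the 3 classical inhibitors, and the ratio of the sums, with bars for the group mean, error bars for the SD (n = 2) and points for the libraries. The subunit sums lie between 80.5 and 86.6 in all 4 libraries, and are lower in both C/EBPβ libraries, while the inhibitor sums of both C/EBPβ libraries lie above those of both empty-vector libraries.

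The genes around these 10 were taken from a list of 110 others of the pathway, of which 93 had enough fragments to be tested. Of these 44 rose and 9 fell, against 22.3% higher and 20.9% lower among all genes tested, with a median log2 fold change of 0.28. Some of them, such as Psmb9 and Birc3, had almost no fragments in the empty-vector libraries and were tested through their C/EBPβ counts. Such genes could only be called higher, which tilts the counts and medians upward. The list was also chosen with earlier results of these data known, which may tilt them too.

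Of the 12 ligands, 6 were tested and 3 rose, where 22.3% of all genes tested were higher. Il33, an alarmin of the interleukin-1 family, rose from 20.7 and 24.0 CPM to 80.9 and 75.8 CPM, which is 3.51-fold, at an adjusted p of 9.65e-06. Tnfsf12, which encodes the ligand TWEAK, rose 2.65-fold, from a mean of 8.97 to 23.8 CPM. Il1b rose 5.20-fold from a low level, with 0.942 and 1.74 CPM in the empty-vector libraries and 5.47 and 8.72 CPM in the C/EBPβ libraries. Tnf was near the limit of detection, with 2 and 1 fragments against 6 and 2, and was not tested, and Tnfsf14 and Cd40lg had no fragment in any library.

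Receptors and adaptors had the largest share of calls of the 6 roles, with 17 of 25 tested higher and 4 lower and a median log2 fold change of 0.43. Among all genes tested 43.2% were called, 22.3% as higher and 20.9% as lower. Both chains of the interleukin-1 receptor rose: Il1rap from 6.68 ± 0.177 to 40.4 ± 0.0129 CPM and Il1r1 from 84.1 ± 0.697 to 172 ± 0.672 CPM (n = 2 each). The TNF receptor Tnfrsf1b rose 3.01-fold, the toll-like receptor Tlr2 3.68-fold, the kinase Irak2 1.92-fold and the adaptor Traf5 1.96-fold. Birc3, a ubiquitin ligase and a known NF-κB target named after its values were seen, rose from 2 and 1 fragments to 21 and 12. It is among the 17 although it could only be called higher. Those that fell were Tnfrsf12a, the receptor of TWEAK (log2 fold change -0.86), the NF-κB target Traf1 (0.969 to 0.133 CPM), and Traf2 (-0.33) and Traf3 (-0.32), which hold NIK in check. Thus ligand and receptor of TWEAK changed in opposite directions. Traf3 lost its call without empty-vector replicate 1 (adjusted p = 0.0591).

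Among the kinases and the proteins that turn over IκB, 2 of 18 rose and 2 fell, with a median log2 fold change of 0.01. The share called was 22.2%, against 43.2% of all genes tested. The IκB kinase complex itself did not pass: Ikbkb had a log2 fold change of 0.10 (adjusted p = 0.359), Ikbkg of 0.04 (0.650) and Chuk of -0.18 (0.0774). Ikbke, an IκB kinase relative that is inducible in many cells, rose from 9.80 and 7.61 CPM to 20.1 and 16.1 CPM (adjusted p = 0.00179). Map3k14, the NIK kinase that starts the processing of p100, fell from 58.7 ± 1.06 to 37.9 ± 5.29 CPM (SD, n = 2), 1.55-fold, at an adjusted p of 0.00188. Map3k8 (log2 fold change 0.64) was the other that rose and Ube2n (-0.37) the other that fell, and both lost their calls without empty-vector replicate 2 (adjusted p = 0.126 and 0.125).

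Other negative regulators of the pathway rose in 5 of 14 cases and fell in 1, with a median log2 fold change of -0.03. The share called, 42.9%, was close to the 43.2% of all genes tested. N4bp1 (log2 fold change 0.45, adjusted p = 0.00254), Irak3 (1.31, adjusted p = 0.00435), the deubiquitinase Cyld (0.29, adjusted p = 0.0167), Pdlim2 (0.32) and Zc3h12a (0.31) rose, and Rnf11, a partner of A20, fell from 462 ± 39.6 to 293 ± 27.7 CPM (n = 2 each). Cyld and Pdlim2 lost their calls without either empty-vector library (adjusted p = 0.0529 and 0.106 for Cyld, 0.110 and 0.0716 for Pdlim2), and Zc3h12a, at an adjusted p of 0.0459, lost its call in 7 of 12 alternatives. Tnip1, an adaptor of A20, had a mean of 69.7 and 69.1 CPM and a log2 fold change of -0.01 (adjusted p = 0.918).

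Of the 36 targets listed, 27 were tested, 17 rose and 2 fell, with a median log2 fold change of 0.67. Among all genes tested 22.3% were higher and 20.9% lower. Psmb9, C3, Mmp3, Mmp9 and Il6 had at most 6 fragments in an empty-vector library, and Saa3 had 11 and 5. They entered the test through their C/EBPβ counts and could only be called higher, as all of them but Il6 were (adjusted p = 0.067). The rises with the smallest p were those of Tap1, a peptide transporter (1.04 to 17.5 CPM), the complement component C3 (0.0831 to 6.48 CPM), the immunoproteasome subunit Psmb9 (3 and 2 fragments against 267 and 209), Ptx3, and the chemokines Ccl2 (5.14-fold) and Ccl7. Those that fell were Bcl2l1, which encodes the survival protein BCL-XL (log2 fold change -0.55), and Gadd45b, a stress-inducible gene (-0.49). Other well-known targets did not pass, among them Sod2 (log2 fold change -0.21, adjusted p = 0.0622) and Ier3 (0.10, adjusted p = 0.450), and Icam1, with at most 3 fragments in a library, was not tested.

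**Figure D4:**
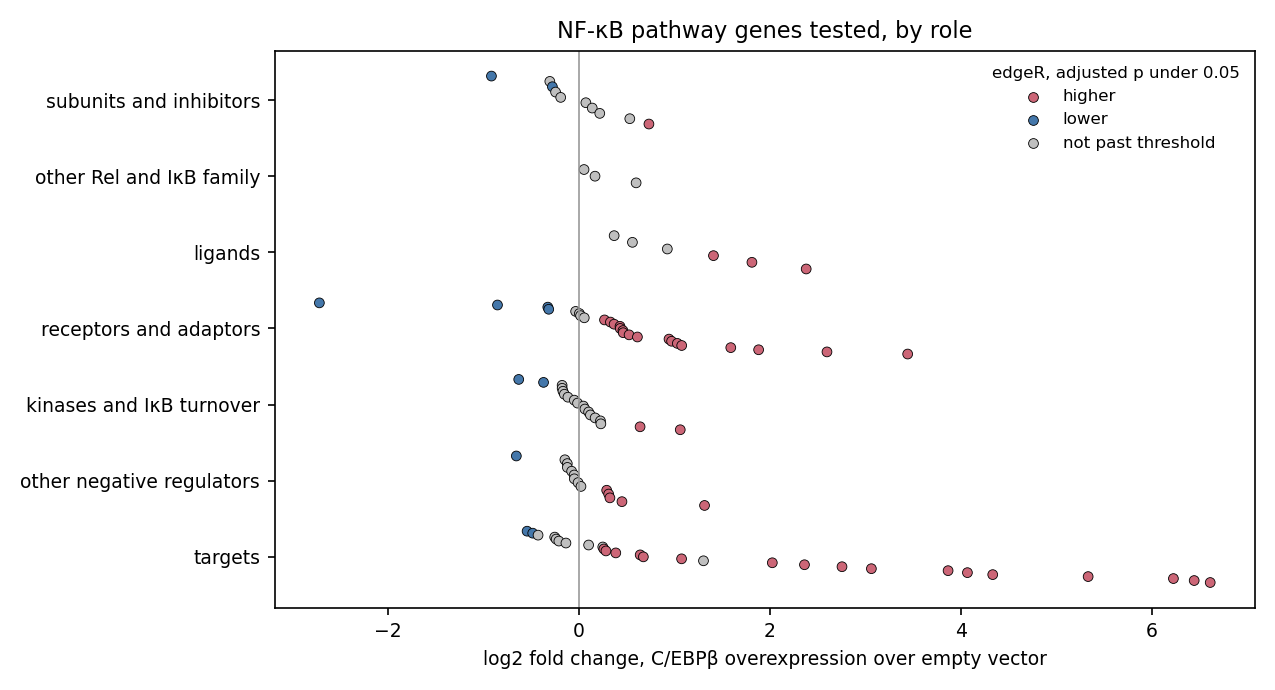
Fitted log2 fold change, C/EBPβ over empty vector, of each gene tested, with the 10 subunits and inhibitors in the top row and the other pathway genes below by role, coloured by their edgeR call. The top row spans -0.92 to 0.73, while receptors, ligands and targets reach farther to the right; the fitted values of genes with few fragments in the controls, such as Birc3 and Psmb9, depend on the prior count of the fit.

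For the 3 genes that passed, the protein-coding genes with the most similar pattern over the 4 libraries were sought among 11752 candidates, by the Euclidean distance between log2 CPM profiles centred on their means. They were Gls2, 1600002K03Rik and Prdx5 for Nfkbia (distances of 0.0290 to 0.0457), Dnajb5, Zbed4 and Hfe2 for Tnfaip3 (0.0470 to 0.0602) and Abcf1, Trak1 and Uqcrc1 for Nfkb2 (0.00755 to 0.0174). Picking by this distance makes their log2 fold changes close to that of the gene they resemble, such as 0.77 for Prdx5 and -0.96 for Dnajb5.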

How the data were processed

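For each library the authors deposited unnormalised fragment counts, made by featureCounts 1.5.1 on the reverse strand against GENCODE M12 on GRCm38, per the file headers. HISAT2 2.0.4 alignment is named in the submitters' processing notes, which give featureCounts as 1.4.6. Per the file headers, the authors' table of their own comparison gives for each gene a mean signal, a log2 fold change, its SE, a score (the test statistic) and 2 p-value columns, raw and adjusted.

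Groups and replicate numbers came from the sample titles. Symbols were matched for 49326 of 49585 identifiers. Genes were filtered with filterByExpr (minimum count 10, minimum total 15), library sizes scaled by TMM, and the groups compared in edgeR 4.0.16 under R 4.3.3 by the robust quasi-likelihood F-test (2-sided, threshold 0.05 after Benjamini-Hochberg adjustment over all genes). The SE was derived from the F statistic, and log2 CPM used a prior count of 2. The fit was also run on counts simulated from dispersions estimated in these data, with far fewer changed genes than were called here. That run does not check the scaling under so broad a shift. The 2 libraries of a group were not copies: their counts differed with a chi-square of 18.2 (empty vector) and 25.9 (C/EBPβ) for each degree of freedom. The common biological coefficient of variation was 9.42%. Of 50-base windows in transcripts of the 10 genes, at most 0.65% were shared with other genes, and no exonic base overlapped another gene on the same strand.

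The 10 genes, the pathway list and the marker lists were chosen with earlier results of these data known. Genes of each pathway role were named in order of p, up to 6 in each direction, with genes that did not pass or were not tested named after their values were seen. The most abundant markers were named too, and for the 3 members with the smallest p the 3 genes nearest in pattern. Alternatives were other scalings, filters and tools (DESeq2 1.42.0, limma-voom in limma 3.58.1), each library left out, and a replicate block.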

Additional observations from a re-analysis of the deposited data

How the results depend on the processing

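Each of the 10 genes was refitted under 12 alternatives. Of these 120 values 109 kept their side of the threshold, 3 lost the call, 8 gained one, and all kept their direction. Nfkbia (log2 fold change 0.64 to 0.80) and Tnfaip3 (-1.18 to -0.70) passed in all 12; the 3 losses were those of Nfkb2 given above. Leaving out 1 library at a time gave 4005 to 7414 genes called in all, against 6864 (4005 without empty-vector replicate 2), 1 to 2 of the 10 genes higher and 1 to 2 lower. Without a low-count filter 2 of the 10 were higher. The other pathway genes gave 32 to 47 rises and 8 to 12 falls. The inhibitor to subunit ratio stayed 1.29 to 1.48 times higher with C/EBPβ. With the replicate number as a block, 2 of the 10 were higher (Nfkbia and Bcl3) and 4 lower (Tnfaip3, Nfkb2, Nfkbib and Nfkbiz), and 7677 genes were called in all; the differences between replicates 1 and 2 correlated at 0.147 across genes between the groups, and nothing in the labels ties equal numbers to a common culture or day, so no pairing was assumed. Where a library was left out, the lone library of its group was assumed to vary like the others. Bcl3 had the fewest fragments of the 10 genes, 118 to 242 in a library.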
